A study of Mus musculus with 6 samples.

Results

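A set of named genes of the primitive streak and the endoderm that forms from it was followed in differentiating mouse embryonic stem (ES) cells: T (brachyury, also Tbxt), Eomes, Mixl1, Gsc, Lhx1, Foxa2, Foxa1, Sox17, Hhex and Cxcr4. They number 10 and were chosen by symbol, and each gene was represented by the brightest, on average over the 6 arrays, of the Affymetrix probe sets annotated with that symbol alone. Of the 10 genes, 9 were measured, by 12 probe sets in all, out of 18193 genes represented on the arrays. T had no probe set under either symbol in the annotation used here, so no level of T is given. All 9 measured genes were among the 9997 genes bright enough to be tested.

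The cells were of the line A2.miR200c, a derivative of A2lox mouse ES cells in which the genomic cluster of miR-200c and miR-141 is transcribed from a doxycycline-inducible promoter. They were grown as embryoid bodies, floating aggregates in which ES cells differentiate, in Petri dishes in medium with serum. Induced cultures received 500 ng/mL doxycycline on days 2 and 4, so that those taken on day 3 had received the day 2 dose alone, untreated cultures received none, and RNA was taken from both on days 3, 4 and 5. There was 1 array per treatment and day, and a difference within a day has no replicate and no error. The labels do not tie arrays to dishes. Both groups carried the inducible cluster. No line without it was given doxycycline on these arrays, so effects of doxycycline and of the microRNAs cannot be told apart here. Neither the number of clones behind the line nor the order of the second dose and the day 4 harvest is given in the sources used here.

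The primitive streak is the site where epiblast cells leave the epithelium during gastrulation. Nodal and Wnt signals switch on T-box and homeobox transcription factors there, and cells of its anterior end, exposed to the most Nodal signalling, become definitive endoderm under Eomes, Foxa2 and Sox17. ES cells that differentiate in serum pass through a comparable streak-like stage before mesoderm and endoderm genes appear. MicroRNAs of the miR-200 family are known for holding cells in an epithelial state by repressing Zeb1 and Zeb2.

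The mature forms of the induced microRNAs are shown because their seeds, bases 2 to 8 in capitals, largely set which messages they pair with. No search for seed matches in messages was made. Sequences and positions are those of RefSeq on GRCm38.p6, where both lie on the minus strand of chromosome 6, at chr6:124717917-124717938 for miR-141-3p and chr6:124718324-124718346 for miR-200c-3p.
mmu-miR-141-3p: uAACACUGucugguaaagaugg
mmu-miR-200c-3p: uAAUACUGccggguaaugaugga
The seeds differ at 1 position, base 4 from the 5′ end, so the 2 microRNAs belong to different seed groups. The arrays measured polyadenylated messages and gave no value for either microRNA.

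Intensities below are dChip model values on a linear scale. Differences and folds were taken on log2(intensity + 50), which damps the change of dim genes. The background level, 36.7, is the 95th percentile of 78 olfactory, vomeronasal, taste and trace amine receptor genes. The 6 arrays had median intensities between 34.5 and 36.9, and 48.8 to 50.1% of probe sets exceeded the background level. Pou5f1 and Nanog, transcription factors of pluripotent cells, had 4665 and 2363 on the induced day 3 array and 4858 and 2777 on the untreated day 3 array. Hprt had the largest upward difference of all genes tested on each day, with log2 differences of 2.60, 3.89 and 4.31 on days 3, 4 and 5. The inducible cassette of A2lox lines lies beside Hprt.

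On day 4 all 9 measured genes were lower in induced than in untreated embryoid bodies, and on day 5 all but Cxcr4 were higher. The median log2 difference, induced minus untreated, was 0.01 on day 3, -0.58 on day 4 and 0.91 on day 5, beside 0.0048, 0.02 and 0.02 over all genes tested. A lower value on day 4 occurred in 45.9% of all genes and a higher value on day 5 in 53.2%. The combination occurred in 8 of the 9 genes and in 18.9% of all genes, and the opposite combination in 0 of the 9 and in 19.7% of all genes. With a minimum of 1.5-fold on both days, the combination was found in Lhx1 and Mixl1 and in 0.15% of all genes. In bulk RNA, fewer cells of a type and less RNA per cell cannot be told apart.

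**Figure D1:**
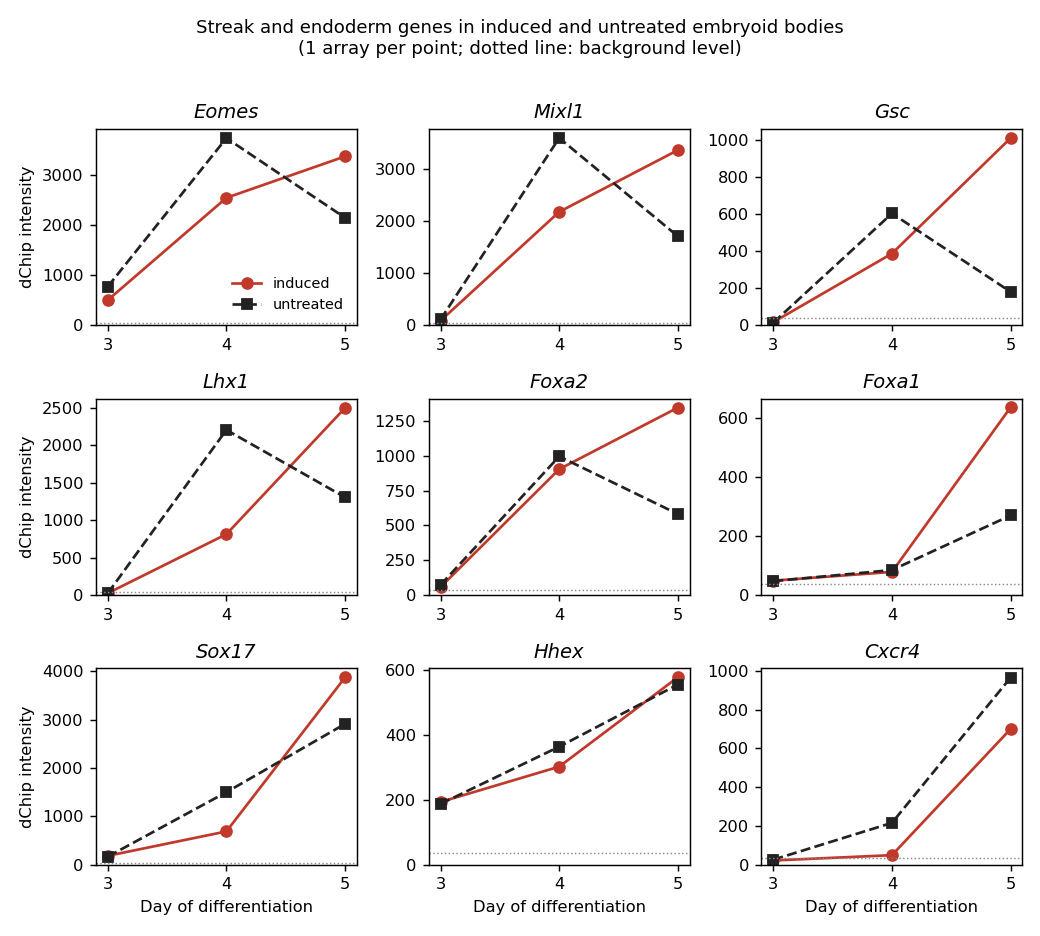
Each panel plots the dChip intensity of a gene (linear scale, from 0) against day of differentiation, with red circles for induced and black squares for untreated embryoid bodies, 1 array per point, and a dotted line at the background level of 36.7. The untreated lines of Eomes, Mixl1, Gsc, Lhx1 and Foxa2 peak on day 4 while the induced lines are highest on day 5, and the other 4 genes are highest on day 5 in both.

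Eomes, a T-box factor required for endoderm and for cells to leave the streak, had 499, 2539 and 3364 on the induced arrays of days 3, 4 and 5, against 769, 3729 and 2141 on the untreated arrays. It had the largest day 3 difference of the 9 genes, lower by 1.49-fold in induced embryoid bodies. It was lower by 1.46-fold on day 4 and higher by 1.56-fold on day 5. The other Eomes probe set gave 468, 2507 and 3503 on the induced arrays against 574, 3802 and 2101 on the untreated ones, so the signs of all 3 days were shared while the day 3 difference was smaller, at -0.27 against -0.58.

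Mixl1, a paired-class homeobox gene of the streak that in mouse is needed for definitive endoderm, had 85.6, 2183 and 3373 on the induced arrays and 110, 3606 and 1714 on the untreated arrays. In both treatments it was dim on day 3 and strongly expressed a day later. On day 4 induced embryoid bodies had 1.64-fold less Mixl1 RNA and on day 5 they had 1.94-fold more, since the untreated level on day 5 was 2.07-fold below that of day 4 and the induced level 1.53-fold above.

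Gsc (goosecoid), a homeobox repressor of the anterior streak and the organizer, had 16.3, 388 and 1012 on the induced arrays and 13.6, 605 and 180 on the untreated arrays. Both day 3 values lay below the background level. On day 5 the induced array was 4.61-fold higher, the largest difference among the 9 genes and rank 9 of 9997 among all genes higher on that day. The untreated level on day 5 was 2.84-fold below that of day 4, whereas the induced level was 2.43-fold above.

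Lhx1, a LIM homeobox factor of the anterior streak and its mesendoderm, had 23.7, 813 and 2502 on the induced arrays, against 23.0, 2208 and 1307 on the untreated arrays. The day 3 arrays did not exceed the background level. The induced level was 2.62-fold lower on day 4, rank 20 of 9997, and then 1.88-fold higher on day 5. The other Lhx1 probe set was dimmer and gave 5.88, 181 and 909 on the induced arrays and 5.87, 757 and 352 on the untreated ones, with larger log2 differences of -1.81 on day 4 and 1.25 on day 5.

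Promoter sequence, from RefSeq on GRCm38.p6, is shown for Gsc and Lhx1 because their differences turned most between days 4 and 5. Each run is the 250 bases before the annotated start, read 5′ to 3′ along the gene, which lies on the minus strand in both cases. The Gsc run is chr12:104473237-104473486 and the Lhx1 run chr11:84525535-84525784.
Gsc: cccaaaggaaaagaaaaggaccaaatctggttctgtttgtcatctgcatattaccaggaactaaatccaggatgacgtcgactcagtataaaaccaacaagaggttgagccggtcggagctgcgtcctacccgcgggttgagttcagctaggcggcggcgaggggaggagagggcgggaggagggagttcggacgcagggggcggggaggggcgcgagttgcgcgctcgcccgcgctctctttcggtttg
Lhx1: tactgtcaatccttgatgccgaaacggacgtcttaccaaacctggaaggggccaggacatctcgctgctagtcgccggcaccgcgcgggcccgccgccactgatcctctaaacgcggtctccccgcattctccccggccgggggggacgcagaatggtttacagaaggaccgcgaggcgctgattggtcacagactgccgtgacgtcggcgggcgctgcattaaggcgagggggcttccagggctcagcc
The following 5 motifs were searched on both strands of such windows: AATNNACA (Foxh1), TAATCC (bicoid-class homeodomain proteins such as goosecoid), GTAAACA (forkhead proteins), AGGTGTNA (T-box half-site) and ATCAAAG (TCF/LEF). They are held by 10.9%, 6.25%, 3.17%, 2.68% and 3.21% of the 32851 windows of all genes, and none of these letters stands in the Gsc or Lhx1 run. Of the 10 genes, 8 matched the promoter table, with 10 windows, and 2, Mixl1 and Sox17, did not. A match was found in 2 of the 8 genes, Foxa1 (GTAAACA, 141 to 135 bases before the start) and T (AGGTGTAA, 14 to 7 bases before the start). The share of all windows with any of the 5 motifs was not counted, so no excess can be read from these 2 matches. The stretches around them, with the match in capitals, lie at chr12:57546236-57546262 on the minus strand and chr17:8434399-8434422 on the plus strand. The Foxa1 window, chr12:57546112-57546361, lies inside the annotated span of the gene, chr12:57540628-57548029, so its start is an internal one.
Foxa1: atactgctttGTAAACAaagtgagggc
T: gcagggacccAGGTGTAAtctttg

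Foxa2, a forkhead factor of the anterior streak, node and endoderm that opens chromatin for later gut genes, had 56.6, 904 and 1346 on the induced arrays and 72.0, 995 and 582 on the untreated arrays. On day 4 the treatments were close, with a log2 difference of -0.13, and on day 5 induced embryoid bodies were 2.21-fold higher. Foxa1, its close relative that follows it in gut endoderm, had 48.7, 78.3 and 637 on the induced arrays and 47.0, 84.7 and 270.00 on the untreated arrays. Its log2 difference was 0.02 on day 3, -0.07 on day 4 and 1.10 on day 5. For both forkhead genes the turn of sign between days 4 and 5 therefore rested on day 5, where together with Gsc they were the members at least 2-fold higher, a size reached upward by 1.97% of all genes. A difference of at least 1.5-fold upward on day 5 was found in 6 of the 9 genes, these 3 with Eomes, Mixl1 and Lhx1, and in 5.24% of all genes.

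Sox17, an HMG-box factor that drives endoderm formation, had 185, 690 and 3875 on the induced arrays and 169, 1502 and 2914 on the untreated arrays. On day 4 the induced level was 2.10-fold lower, and a day later it was 1.32-fold higher. The other Sox17 probe set, dimmer at 42.7, 103 and 937 on the induced arrays and 33.8, 203 and 528 on the untreated ones, gave -0.73 and 0.77 on the log2 scale for these days. Hhex, a homeobox gene of anterior endoderm and of blood vessel precursors, had the smallest difference of the 9 on day 5, with 193, 302 and 577 on the induced arrays and 187, 363 and 555 on the untreated arrays. Its log2 differences were 0.04, -0.23 and 0.05 on days 3, 4 and 5.

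Cxcr4 is no transcription factor but the receptor for the chemokine Cxcl12, on the surface of definitive endoderm and also of mesodermal and endothelial cells. It had 22.2, 49.6 and 700 on the induced arrays and 26.3, 216 and 964 on the untreated arrays. The induced day 4 array was little above the background level of 36.7, and both day 3 arrays were below it. Cxcr4 was lower in induced embryoid bodies by 2.67-fold on day 4, rank 18 of 9997, and by 1.35-fold on day 5, the only one of the 9 genes lower on both of these days. With Lhx1 and Sox17 it made up the 3 members at least 2-fold lower on day 4, against 0.5% of all genes. On day 3, 0 of the 9 genes differed by 2-fold, and 0.01% of all genes did so in each direction.

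**Figure D2:**
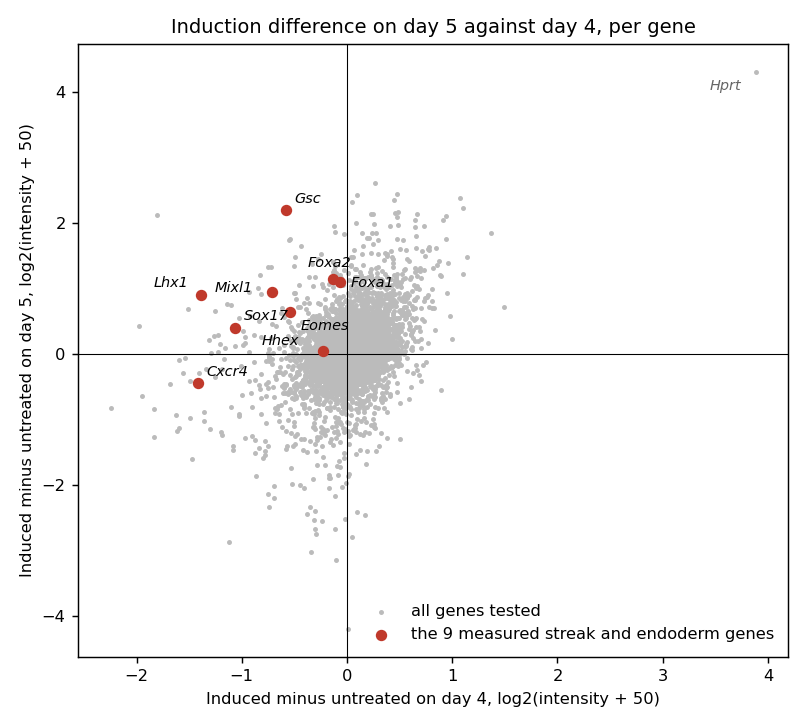
Each point is a gene, with its log2 difference (induced minus untreated) on day 4 on the x axis and on day 5 on the y axis, 1 array per treatment and day. The 9 named streak and endoderm genes (red) lie left of 0 on day 4, 8 of them also above 0 on day 5, among all 9997 genes tested (grey), and the point at the upper right is Hprt.

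The mean difference over the 3 days was tested with limma, with day as a factor. None of the 9 genes passed at a Benjamini-Hochberg adjusted p of 0.05, and 0 of the 9997 genes did, while 842 had an unadjusted p under 0.05. Cxcr4 had the largest mean difference, -0.64 ± 0.69 (SD over n = 3 days, limma adjusted p = 0.573), and Gsc the largest upward, 0.56 ± 1.46 (limma adjusted p = 0.753). For Mixl1 the days cancelled, to 0.00 ± 0.86, and for Lhx1 they came to -0.15 ± 1.16. These means pool days of opposite sign in 8 of the 9 genes.

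The turn itself, the difference on day 5 minus that on day 4, was 2.79 ± 0.44 for Gsc, 2.30 ± 0.24 for Lhx1 and 1.67 ± 0.25 for Mixl1 (log2, limma SE), which ranked 2, 7 and 38 among the upward changes of 9997 genes. Sox17 followed with 1.47 ± 0.29, Foxa2 with 1.28 ± 0.41, Eomes with 1.19 ± 0.34 and Foxa1 with 1.17 ± 0.35. An upward turn of at least 2-fold was thus measured in 7 of the 9 genes and in 1.67% of all genes. Cxcr4, at 0.98 ± 0.48, was just short of that size and depended on the pseudocount, with 1.37 at a pseudocount of 16 and 0.67 at 100, and Hhex had 0.28 ± 0.23. In this fit the only residual degree of freedom is the distance of the day 3 difference from the mean of days 4 and 5, so the SE is an estimate from 1 comparison and the limma prior. None of the 9 passed over all genes, with adjusted p from 0.382 for Lhx1 to 0.997 for Hhex. Over all 9997 genes 0 passed, 562 had an unadjusted p under 0.05, and the smallest adjusted p was 0.0646. A linear change of the difference per day also called 0 genes, with adjusted p of 0.217 for Eomes and 0.218 for Foxa2 at the low end of the 9.

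Time itself changed these genes in both treatments. The error of the day steps is the departure of the daily induction differences from a constant, which includes the turn. From day 3 to day 5 all 9 rose in the limma fit over both treatments, by 1.36 ± 0.11 (log2, SE) for Hhex at the least to 4.67 ± 0.52 for Lhx1 at the most, with adjusted p between 0.00232 and 0.0227, against 20.6% of all genes rising. Between days 3 and 4, Mixl1 rose by 4.28 ± 0.39 and Lhx1 by 4.25 ± 0.52, and Foxa2, Sox17, Eomes and Hhex also passed, while 4.44% of all genes rose. Gsc, at 3.04 ± 0.66, missed the threshold (adjusted p = 0.0545), as did Cxcr4 (adjusted p = 0.0874) and Foxa1 (adjusted p = 0.379). Between days 4 and 5 the genes that passed were Cxcr4, up by 2.42 ± 0.32 (adjusted p = 0.0315), Foxa1, up by 1.83 ± 0.31 (adjusted p = 0.0404), and Hhex, up by 0.69 ± 0.11 (adjusted p = 0.0385), with 3.8% of all genes rising. Sox17, at 1.67 ± 0.35, did not pass (adjusted p = 0.0591). Eomes, Mixl1, Gsc and Foxa2 had log2 differences between -0.22 and -0.09 over this step, where the 2 treatments differed in direction. Without the day 3 arrays the calls of Foxa1 (limma adjusted p = 0.0646) and Hhex (0.0711) between days 4 and 5 were lost, and without the day 5 arrays Gsc (6.43e-05), Cxcr4 (0.0212) and Foxa1 (0.0416) passed between days 3 and 4.

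Within a treatment, a step from one day to the next compares 2 arrays and has no test, so steps of at least 2-fold were counted. From day 3 to day 4, 6 of the 9 genes were at least 2-fold higher in induced embryoid bodies, against 1.18% of all genes, and 7 in untreated embryoid bodies, against 1.91% of all genes, with Cxcr4 past 2-fold in untreated embryoid bodies alone. From day 4 to day 5, Cxcr4, Foxa1, Gsc, Lhx1 and Sox17 were at least 2-fold higher in induced embryoid bodies, against 2.02% of all genes. In untreated embryoid bodies Cxcr4 and Foxa1 were at least 2-fold higher over that step, against 2.94% of all genes, and Gsc and Mixl1 at least 2-fold lower, against 2% of all genes.

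The peak day divided the genes into 2 sets. Eomes, Mixl1, Gsc, Lhx1 and Foxa2 were highest on day 4 in untreated and on day 5 in induced embryoid bodies, as were 7.93% of all genes. Cxcr4, Foxa1, Hhex and Sox17 were highest on day 5 in both treatments, as were 28.5% of all genes. To set the induced day 5 levels beside the untreated peak of the genes that peaked on day 4, the induced day 5 array was set against the untreated day 4 array. The log2 differences were -0.15 for Eomes, -0.10 for Mixl1, 0.18 for Lhx1, 0.42 for Foxa2 and 0.70 for Gsc, all smaller than 2-fold. Differences smaller than 2-fold were found for all but 1.69% of all genes, so this does not set the 5 genes apart. For the genes whose untreated level was highest on day 5, the differences from untreated day 4 were 0.60 for Hhex, 1.34 for Sox17, 1.49 for Cxcr4 and 2.35 for Foxa1, the last 3 larger than 2-fold, a distance in either direction found for 1.69% of all genes. With 1 array per point and a day between harvests, a later peak and a longer one cannot be told apart.

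**Figure D3:**
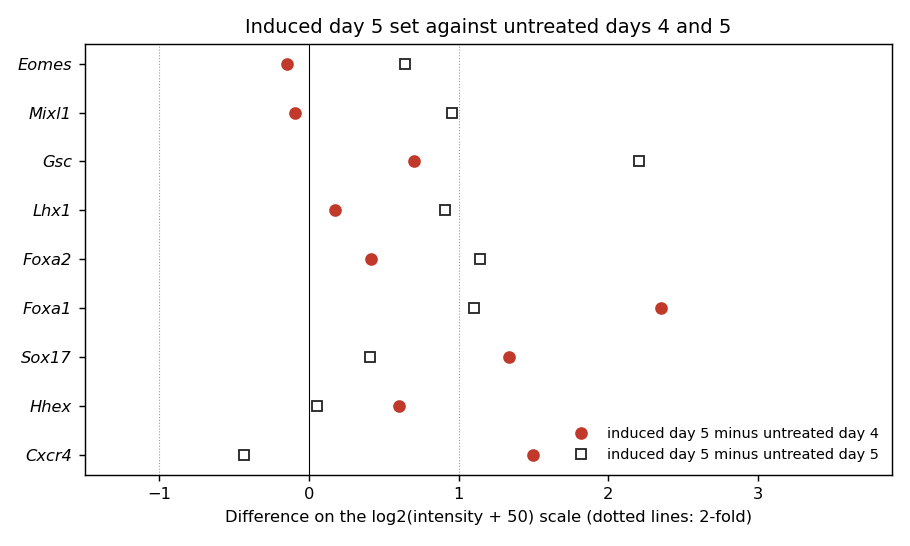
For each gene the red circle is the log2 difference of the induced day 5 array from the untreated day 4 array and the open square its difference from the untreated day 5 array, with 2-fold marked by dotted lines. Eomes, Mixl1, Lhx1, Foxa2 and Gsc lie within 2-fold of the untreated day 4 level, as do all but 1.69% of all genes tested. Sox17, Cxcr4 and Foxa1 lie more than 2-fold above it.

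Over the 6 arrays the 9 genes had pairwise Pearson correlations between 0.589, for Eomes and Foxa1, and 0.993, for Mixl1 and Foxa2, on the log2 scale. These arrays share the day series, and the values describe 6 arrays. Among 1564 genes that spanned at least 2-fold over the arrays, the profiles nearest to Gsc were Upp1 (r = 0.996), Dock11 (0.991) and Cachd1 (0.985). Ror2, a Wnt5a receptor, was nearest to Foxa2 (0.998), before Dock11 (0.994) and Mixl1 (0.993). Ror2 had 214, 579 and 716.5 on the induced arrays and 240, 604 and 513 on the untreated arrays, so it too was highest on day 5 in induced and on day 4 in untreated embryoid bodies. Dkk1, a secreted Wnt antagonist of the anterior streak and endoderm, was nearest to Sox17 (0.998), followed by Ablim1 and Sccpdh (0.997 each). Its levels were 51.8, 451 and 3015 on the induced arrays and 62.8, 1106 and 2688 on the untreated arrays.

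The signals that act on the streak did not share a direction. Of 15 genes listed, 12 were tested, with 7 lower and 5 higher on day 4 and 6 each way on day 5, and medians of -0.03 and -0.06. Nodal, the ligand that sets anterior streak identity, was nearly level between treatments on day 3 and had 2765 on the induced and 2352 on the untreated day 4 array. On day 5 it had 2125 on the induced and 444 on the untreated array, 4.41-fold higher. Fgf8, a growth factor of the streak, had 203, 974 and 1239 on the induced arrays and 259, 1066 and 283 on the untreated arrays, so its untreated level was highest on day 4. Bmp4, which favours posterior mesoderm, was lower on days 4 and 5, with 350 and 1246 on the induced arrays against 656 and 2386 on the untreated arrays. Lef1, a Wnt effector, had log2 differences of -0.42, -0.47 and -0.28.

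Secreted factors of the anterior streak and anterior endoderm resembled the 9 genes in sign. Of 9 listed, 7 were tested, 5 of them lower on day 4 and 6 higher on day 5, with medians of -0.45 and 1.06, and 4 had the turn from lower to higher. Cer1, a Nodal, BMP and Wnt antagonist of anterior endoderm, had the largest upward turn of all 9997 genes. It had 5.48, 226 and 2046 on the induced arrays and 4.26, 913 and 432 on the untreated arrays, below background on day 3. Frzb, a secreted Wnt antagonist, had 143 on the induced and 710 on the untreated day 4 array, and 488 and 349 on day 5. Lefty1 and Lefty2, Nodal antagonists and targets, were not lower on day 4, and on day 5 had 1273 and 2688 on the induced array and 246 and 1114 on the untreated array.

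Genes of the posterior streak and mesoderm were divided. All 10 tested of 13 listed were lower on day 4 and 7 of them were lower on day 5, with medians of -0.79 and -0.49. In 7 of the 10 the difference on day 5 lay above that on day 4, and 3 of these, Evx1, Snai1 and Mesp2, went from lower to higher. Evx1, a homeobox gene of the posterior streak, had 773 on the induced and 1465 on the untreated day 4 array, and 1587 and 1286 on day 5. Aplnr, the apelin receptor of early mesoderm, had 1032 on the induced and 3089 on the untreated day 4 array, and 5860 and 6124 on day 5. Mesp1, a bHLH factor of early cardiac mesoderm, had 193 on the induced and 684 on the untreated day 4 array, and 660 and 709 on day 5. The other 3 genes had lower differences on day 5 than on day 4. Foxf1, a forkhead gene of lateral mesoderm, had 132 on the induced and 1172 on the untreated day 5 array, and Cdx2, a homeobox gene of posterior tissue, 66.4 and 485. Hand1, a bHLH factor of extraembryonic and lateral mesoderm, had 128 on the induced and 528 on the untreated day 5 array.

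Other genes of definitive endoderm were mostly higher on day 5, 6 of the 7 tested (10 listed), with a median of 1.08, against 53.2% of all genes. On day 4, 4 of the 7 were higher, with a median of 0.24, near the share of 54% among all genes. Epcam, an adhesion molecule of epithelia, had 2692 on the induced and 649 on the untreated day 5 array, and Cldn6, a tight junction protein, 2175 and 734. Both are also expressed by undifferentiated ES cells and epiblast. Trh, a peptide hormone precursor that marks early endoderm in mouse, had 4001 on the induced and 1208 on the untreated day 5 array and was at 3106 and 3607 on day 3. Tmprss2, a membrane protease of endoderm, had 271 on the induced and 102 on the untreated day 5 array. The transcription factors of the list were lower on day 4. Gata6, a zinc finger factor of endoderm and mesoderm, had log2 differences of -1.06 on day 4 and 0.12 on day 5, and Prdm1, a repressor of endoderm and germ cell precursors, -0.51 and 0.94, so both turned from lower to higher. Gata4, a relative of Gata6, had -0.44 and -0.62. Of 5 node and notochord genes listed, 1 was tested, Shh, with 74.7 on the induced and 75.0 on the untreated day 5 array.

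Several of the 9 genes are also used by other cells, so markers of those cells are given beside them. Of 19 extraembryonic endoderm markers, 12 were tested, with 11 higher on day 4 and 5 higher and 7 lower on day 5 (medians 0.18 and -0.08). Their summed intensity ranged over 13340 to 19695 on the induced arrays and 13326 to 19356 on the untreated arrays, and 6 of the 19, Afp, Apoa1, Apoa4, Apob, Hnf4a and Thbd, were below background on all 6 arrays. On the induced day 5 array most of the sum came from Sparc (5657), Lamb1 (4292), Apoe (3575) and Col4a1 (3090), so it says little of the dimmer markers. Sox7, an HMG-box gene of extraembryonic endoderm and vessels, had 166.5 on the induced and 756 on the untreated day 5 array. Its sign was opposite to that of Sox17, but it was the only tested marker of this list at least 2-fold apart on day 5. Cubn, Lrp2 and Dab2 had day 5 log2 differences of 0.48, 0.41 and -0.20. Of 18 blood and endothelium markers 11 were tested, and 10 were lower on day 4 and all 11 on day 5, where the median was -1.18. Their summed intensity ranged over 1118 to 3215 on the induced and 1123 to 8589 on the untreated arrays, with Erg, Tie1, Pecam1, Emcn and Sox18 below background on all 6. Kdr, the VEGF receptor of vascular precursors, had 205 on the induced and 1160 on the untreated day 4 array, and 1763 and 3158 on day 5. These are the signs of Cxcr4 and also of most of this list. In 2 of the 11, Kdr among them, the day 5 difference lay above that on day 4. Hbb-bh1, an embryonic globin, had 40.0 on the induced and 1600 on the untreated day 5 array. Of 8 neural markers 2 were tested, and Nes, an intermediate filament of neural and other progenitors, had 299 on the induced and 150 on the untreated day 5 array while Sox1 was below background on both. The 5 housekeeping genes tested had a median of 0.02 on day 5. The part of these cells in the levels of Cxcr4, Hhex and Sox17 was not tested.

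Pluripotency factors differed mainly on day 5. All 4 listed were higher in induced embryoid bodies on that day, with a median of 1.21, and 3 of 4 were higher on day 4, with a median of 0.10. Nanog had 3523 and 1555 on the induced arrays of days 4 and 5, against 3181 and 394 on the untreated arrays, and Pou5f1 had 2940 on the induced and 1014 on the untreated day 5 array. Zeb1 and Zeb2, the repressors that miR-200 microRNAs target, had 169 and 55.9 on the induced day 5 array, against 403 and 237 on the untreated one. Their log2 differences on days 3 and 4 were 0.0089 and -0.31 for Zeb1 and -0.33 and -0.84 for Zeb2. On the induced arrays of days 3 and 4 Zeb2 had 24.8 and 32.7, below the background level. In the limma fits of induction with day as a factor, of its change from day 4 to day 5 and of its change per day, 0 genes of any of these lists passed. From day 3 to day 5, over both treatments, 20.6% of all genes rose and 19.2% fell in limma's test. Of the genes tested, 6 of 12 streak signals rose and 1 fell, 3 of 7 anterior secreted factors rose and 2 fell, 8 of 10 posterior streak and mesoderm genes rose, and 3 of 7 definitive endoderm genes rose. Among the other lists, 4 of 12 extraembryonic endoderm markers rose and 2 fell, 5 of 11 blood and endothelium markers rose, and 3 of 4 pluripotency factors fell.

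**Figure D4:**
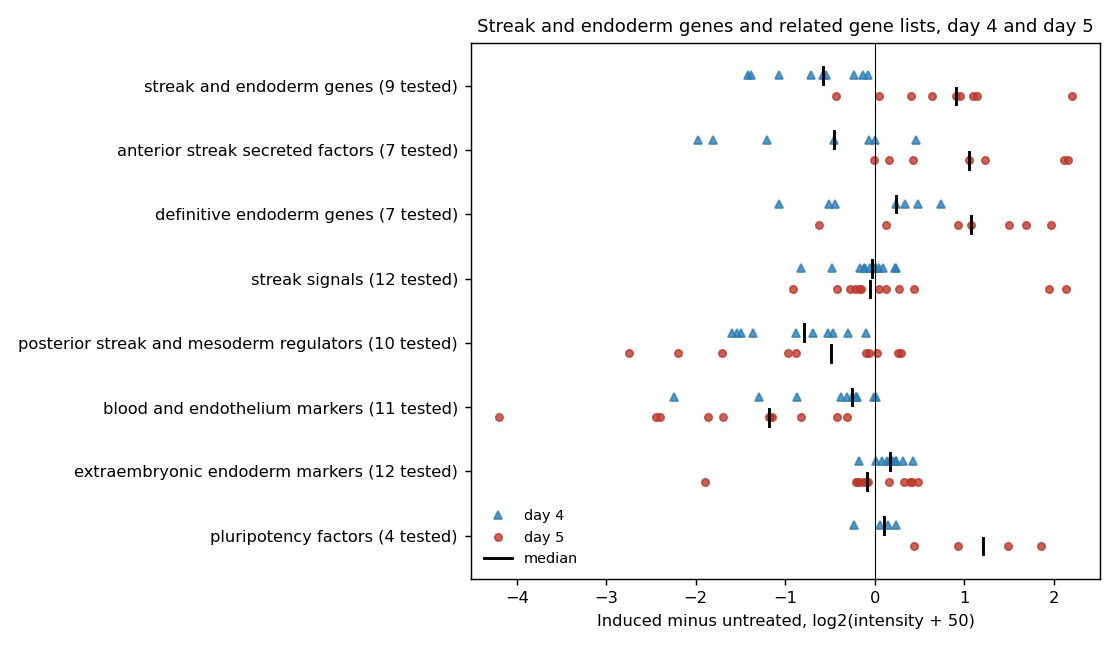
Each mark is a tested gene and the x axis its log2 difference, induced minus untreated, with blue triangles for day 4 above red circles for day 5 and black bars at the list medians. The streak and endoderm genes have medians of -0.58 on day 4 and 0.91 on day 5, the anterior streak secreted factors -0.45 and 1.06, and the blood and endothelium markers -0.25 and -1.18.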

How the data were processed

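RNA from 6 samples (2 treatments, 3 days) was hybridised to Affymetrix MOE430 2.0 arrays. The deposited values are linear intensities, 1 for each of 45037 probe sets, which the authors normalised and modelled in DNA-Chip Analyzer (dChip). Its version is not given in the sources used here. Modelled values of dim probe sets are less reliable, and no detection calls or standard errors came with them. Of these probe sets 34945 were annotated with a single symbol and used, while 932 with several symbols and 9160 without any were not.

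Intensities were taken as log2(intensity + 50). The 9997 genes tested were those that on some array were at or above 80.1, the median over all genes and arrays. Tests used R 4.3.3 and limma 3.58.1 (lmFit, eBayes with intensity trend, two-sided, Benjamini-Hochberg adjustment at 0.05 over all tested genes). Induction was fitted with day as a factor (2 residual degrees of freedom, 3.05 prior), its change from day 4 to day 5 with 1 residual degree of freedom, and day steps over both treatments. The spread is thus between arrays of different days. Differences within a day were counted at fixed folds without a test. The fits were checked on simulated data, but no outcome of that check is given here and no result above rests on it. Alternative settings were also tried. They were pseudocounts of 16 and 100, no filter, the mean of probe sets, quantile normalisation, median centring and no intensity trend. Each day was also left out, and a linear day term was added.

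The genes and lists were chosen with earlier results of these data known. Besides the 9 genes, the text names the 4 tested genes of a list that differed most on day 4 or 5 (or fewer), and the 3 genes nearest in profile to Gsc, Foxa2 and Sox17. Dkk1 is named as such a neighbour. Hprt, Evx1, Snai1, Mesp2, Aplnr, Gata6, Prdm1, Gata4, Sparc, Lamb1, Apoe and Col4a1 were named after their values were seen.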

Additional observations from a re-analysis of the deposited data

Results flagged for a closer look

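The difference between induced and untreated embryoid bodies had opposite signs on days 4 and 5 for 8 genes. The difference on day 5 minus that on day 4, on the log2 scale, was 2.79 for Gsc, 2.30 for Lhx1, 1.67 for Mixl1, 1.47 for Sox17, 1.28 for Foxa2, 1.19 for Eomes, 1.17 for Foxa1 and 0.28 for Hhex. Each day had 1 array per treatment. The limma test of this difference, with 1 residual degree of freedom, passed for none of the 8 over all genes tested. Its unadjusted p ran from 1.25e-04 for Lhx1 to 0.259 for Hhex. That residual is the distance of the day 3 difference from the mean of days 4 and 5, so these p values do not measure error between replicate arrays.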

How the results depend on the processing

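With 1 array per treatment and day, single differences have no error, and dim genes are limited by the background level. All 9 genes stayed lower on day 4, and the same 8 higher on day 5, under each of the 5 alternatives that change their values. The turn from day 4 to day 5 stayed upward for each gene, from 2.52 to 3.01 for Gsc from 2.23 to 2.68 for Lhx1 and from 0.67 to 1.37 for Cxcr4, and passed under none of these or with no intensity trend.

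The mean over days changed sign under some setting for 8 genes. For Mixl1 it was -0.019 with a pseudocount of 16, -0.0050 with median centring and -0.47 without day 5. For Eomes it was 0.047 without day 3 and 0.032 without day 4. Without day 4 it was 0.26 for Sox17, 0.044 for Hhex and 0.46 for Lhx1, and without day 5 it was -0.26 for Gsc, -0.023 for Foxa1 and -0.16 for Foxa2.

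Among the 9 genes, the mean of probe sets brought Sox17 on day 4 to -0.90, under 2-fold, and Lhx1 on day 5 to 1.08, past it, and a pseudocount of 100 brought Foxa1 on day 5 to 0.995, under it. Counts over all genes moved more. Genes at least 2-fold apart numbered 2, 58 and 349 on days 3, 4 and 5. With a pseudocount of 16 they numbered 6, 96 and 472, and with a pseudocount of 100 they numbered 1, 41 and 245. The mean of all probe sets of a gene gave 1, 34 and 229. Induction called 2 genes without day 5 and 145 with a linear day term, none of the 9 among the 145 but 2 definitive endoderm genes and 1 pluripotency factor upward and 1 gene each of the posterior mesoderm list, the blood list and the Zeb pair downward, and its change per day called 11 with a pseudocount of 100 and 2 after quantile normalisation. Day 4 against day 3 called 898 genes, against 597 with no filter, 569 with the mean of probe sets, 554 with no intensity trend and 2958 without day 5. Day 5 against day 4 called 613, against 258 with the mean of probe sets, 170 with no trend and 241 without day 3, and day 5 against day 3 called 3984, against 2454 without day 4. Of the day-step calls of the 9 genes, those between days 3 and 4 were lost for Hhex with no filter (limma adjusted p = 0.0501), Lhx1 with the mean of probe sets (0.0512) and Sox17 with that mean (0.0641) and with no trend (0.0531), and gained for Gsc with a pseudocount of 16 (0.0378). Those between days 4 and 5 were lost for Foxa1 (0.0599 with the mean of probe sets, 0.0636 with no trend), Hhex (0.0535 with no filter, 0.0554 with no trend) and Cxcr4 (0.0528 with no trend). The cause of these shifts was not tested. The fit of induction, with day as a factor, pairs the induced and the untreated array of each day. The labels name no replicate cultures to pair by beyond that.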
